A study of Mus musculus with 12 samples.

Results

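A set of 10 genes of the Wnt and β-catenin pathway were followed in C22 mouse club cells, with or without Pdcd5 knockdown and with or without TGF-β1. They were taken by gene symbol, and each matched 1 of the 23282 gene rows. They comprise the ligand Wnt5a, the receptors Fzd1 and Fzd2, the co-receptor Lrp6, the secreted antagonist Sfrp1, β-catenin itself (Ctnnb1), the feedback regulator Axin2, and the nuclear factors Lef1, Tcf7 and Tcf7l2. The 12 QuantSeq 3′ RNA libraries fall into 4 groups of 3. Cells were labelled as negative control (NC) or carried siRNA against Pdcd5 (siPdcd5), and each was left untreated or was kept for 24 h in TGF-β1 at 20 ng/ml, which gives NC + TGF-β1 and siPdcd5 + TGF-β1. All groups were the C22 line, 1 immortalised clone derived from H-2Kb-tsA58 transgenic mice, whose temperature-sensitive large T antigen drives growth until interferon-γ is withdrawn and the temperature is raised. The cells were differentiated in this way and starved of serum before TGF-β1 was added. Neither the labels nor the study's methods say that libraries came from separate cultures, so p-values measure the spread between these libraries, which may be technical.

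In canonical Wnt signalling, a Wnt ligand binds a Frizzled receptor together with Lrp5 or Lrp6, which stops the Axin, Apc and Gsk3 complex from marking β-catenin for destruction. β-Catenin then enters the nucleus and acts with Tcf and Lef factors on target genes, among which Axin2 is widely used as a readout. Wnt5a acts mostly outside this branch, through receptors such as Ror2 and Ryk, and is known in lung for its part in morphogenesis and fibrosis. β-Catenin is regulated mainly at the level of the protein, which RNA counts do not measure. The comparisons address whether genes of the pathway differ in RNA level when cells receive TGF-β1 and when Pdcd5, whose product the study describes as a binding partner of β-catenin, is knocked down.

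Between 12809857 and 17714828 reads per library were assigned to genes, and levels are given in CPM, which scales the counts of each library to the same size, here after TMM factors. The floor was set at 3 counts in a library, or 0.165 to 0.239 CPM, which covers counting error only. Pdcd5 averaged 68.1 ± 4.68 CPM (SD, n = 3) in NC and 67.8 ± 1.69 CPM in NC + TGF-β1, against 21.1 ± 1.07 CPM in siPdcd5 and 24.1 ± 2.26 CPM in siPdcd5 + TGF-β1. Every siPdcd5 library, treated or not, lay below every NC library. Of the club cell markers, Scgb1a1 had at most 1 count and Scgb3a1 at most 5 in any library, and Scgb3a2 and Cyp2f2 had 0 in all 12. Among epithelial markers, Epcam had at most 1 count and Cdh1 stood at 1.91 to 4.03 CPM (24 to 53 counts). The keratins Krt8 and Krt18 stood at 171 to 524 CPM and 373 to 1200 CPM, and the collagen gene Col1a1 at 1700 to 6540 CPM. The defining club cell markers were thus at or near 0 in these libraries, and the cells are called club cells here after their origin. Over all genes, NC + TGF-β1 replicate 2 stood apart in its group, with a chi-square per gene of 35.0 and 62.7 against the other libraries, which differed from each other by 12.1. The same held for siPdcd5 replicate 1, with 34.6 and 26.8 against 10.2. Differences that these libraries moved are given with and without them.

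Among the 10 genes, Wnt5a was the one that passed the test in any comparison. It rose with TGF-β1 in NC and in siPdcd5 cells, and it fell with Pdcd5 knockdown in the absence and in the presence of TGF-β1. Lef1 was too low to be tested, and Ctnnb1, Axin2, Tcf7, Tcf7l2, Fzd1, Fzd2, Lrp6 and Sfrp1 passed in no comparison. A gene counts as called here at an adjusted p under 0.05 in the quasi-likelihood test of edgeR, adjusted by Benjamini-Hochberg over all 12425 genes tested. With TGF-β1 in NC cells, 1 of the 9 genes tested was called, against 15.3% of all genes (8.57% higher and 6.77% lower). With TGF-β1 in siPdcd5 cells it was 1 of 9, against 16.1% (8.50% higher and 7.61% lower). With knockdown it was 1 of 9 without TGF-β1, against 3.44% (0.901% higher and 2.54% lower), and 1 of 9 with TGF-β1, against 1.55% (0.330% higher and 1.22% lower). The 10 genes were chosen with earlier results of these data known, so these shares are a description. Each TGF-β1 comparison shares 3 libraries with each knockdown comparison, so their values are not independent.

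**Figure D1:**
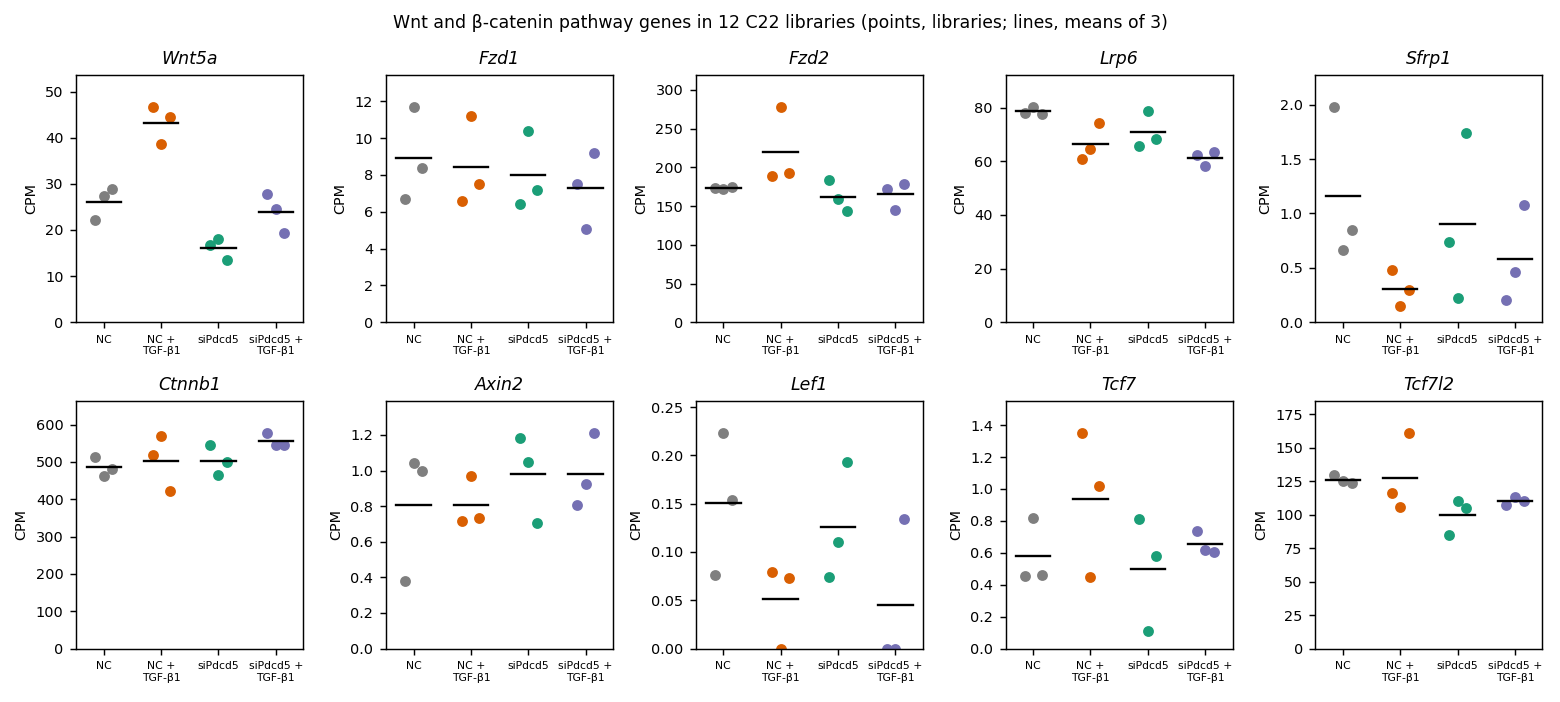
Level in CPM (vertical axis, from 0, a separate scale in each panel) of the 10 genes in the 12 libraries, with 1 point per library and a line at the mean of each group of 3. For Wnt5a the 3 NC + TGF-β1 libraries sit between 38.6 and 46.7 CPM, above all other libraries, and the 3 siPdcd5 libraries sit between 13.5 and 18.0 CPM, below all others.

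QuantSeq is meant to give about 1 read per transcript, so no correction for length was made. The annotation used is not given and multiply aligned reads were counted, without molecular identifiers. The order below is therefore one of read counts, which may differ from that of transcripts. By mean level over the 12 libraries the order was Ctnnb1 (512 CPM), Fzd2 (180 CPM), Tcf7l2 (116 CPM), Lrp6 (69.3 CPM), Wnt5a (27.3 CPM), Fzd1 (8.16 CPM), Axin2 (0.893 CPM), Sfrp1 (0.737 CPM), Tcf7 (0.668 CPM) and Lef1 (0.093 CPM). The library ranges of Fzd2 and Tcf7l2 overlapped, as did those of each neighbouring pair among Axin2, Sfrp1, Tcf7 and Lef1. The ranges of the other neighbours did not overlap. Wnt5a spanned 3.47-fold between its lowest and highest library, more than Ctnnb1 (1.37-fold), Lrp6 (1.38-fold), Tcf7l2 (1.90-fold), Fzd2 (1.95-fold) and Fzd1 (2.30-fold). Tcf7 and Sfrp1 spanned 12.3-fold and 13.2-fold, on counts of 2 to 17 and 2 to 27 per library.

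Wnt5a lies at chr14:28504750-28527448 of GRCm38 on the plus strand and overlaps Gm2670 on the minus strand. The use of strand in counting is not given in the sources used here, so reads of the pair cannot be told apart. The NC libraries had 22.1, 27.4 and 28.9 CPM and the NC + TGF-β1 libraries 46.7, 38.6 and 44.4 CPM. Every treated library exceeded every NC library, and the fold was 1.66 (95% confidence interval 1.32 to 2.08, log2 fold change 0.73, standard error 0.15, adjusted p = 0.00404, edgeR). The siPdcd5 libraries had 16.8, 18.0 and 13.5 CPM and the siPdcd5 + TGF-β1 libraries 27.7, 24.6 and 19.4 CPM. Here too the groups did not overlap, with a fold of 1.49 (1.18 to 1.88, log2 fold change 0.57, standard error 0.16, adjusted p = 0.0224, edgeR).

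Knockdown took the mean level of Wnt5a from 26.1 ± 3.54 to 16.1 ± 2.35 CPM (SD, n = 3) without TGF-β1 and from 43.3 ± 4.14 to 23.9 ± 4.19 CPM with it. The folds were 0.616 (95% confidence interval 0.488 to 0.778, adjusted p = 0.0250, edgeR) and 0.553 (0.441 to 0.694, adjusted p = 0.0112, edgeR), and neither pair of groups overlapped. The log2 fold changes were −0.70 (standard error 0.16) and −0.85 (standard error 0.15). The siPdcd5 + TGF-β1 libraries, at 19.4 to 27.7 CPM, overlapped the NC libraries at 22.1 to 28.9 CPM, a pair of groups for which no test was made. The response of Wnt5a to TGF-β1 in siPdcd5 cells differed from that in NC cells by −0.16 on the log2 scale (95% confidence interval −0.625 to 0.312, adjusted p = 0.975, edgeR), so a smaller or a larger response after knockdown was not detectable with 3 libraries per group.

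The rise of Wnt5a in NC cells was called in all 19 alternative settings, with log2 fold changes from 0.62 to 0.80. The other calls were lost without some single libraries, though not without NC + TGF-β1 replicate 2 or siPdcd5 replicate 1. With TGF-β1 in siPdcd5 cells, the adjusted p was 0.0961 without siPdcd5 replicate 3, 0.119 without siPdcd5 + TGF-β1 replicate 1 and 0.0711 without siPdcd5 + TGF-β1 replicate 2. For knockdown without TGF-β1 it was 0.113 without NC replicate 2, 0.113 without NC replicate 3 and 0.117 without siPdcd5 replicate 3. For knockdown with TGF-β1 it was 0.0574 with only the 6 libraries compared, 0.0515 without NC + TGF-β1 replicate 1, 0.0505 without siPdcd5 + TGF-β1 replicate 2 and 0.0717 without siPdcd5 + TGF-β1 replicate 3. Over all alternatives the fold changes kept their sign, from 0.45 to 0.70, from −0.81 to −0.59 and from −0.98 to −0.72 on the log2 scale in the 3 comparisons.

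**Figure D2:**
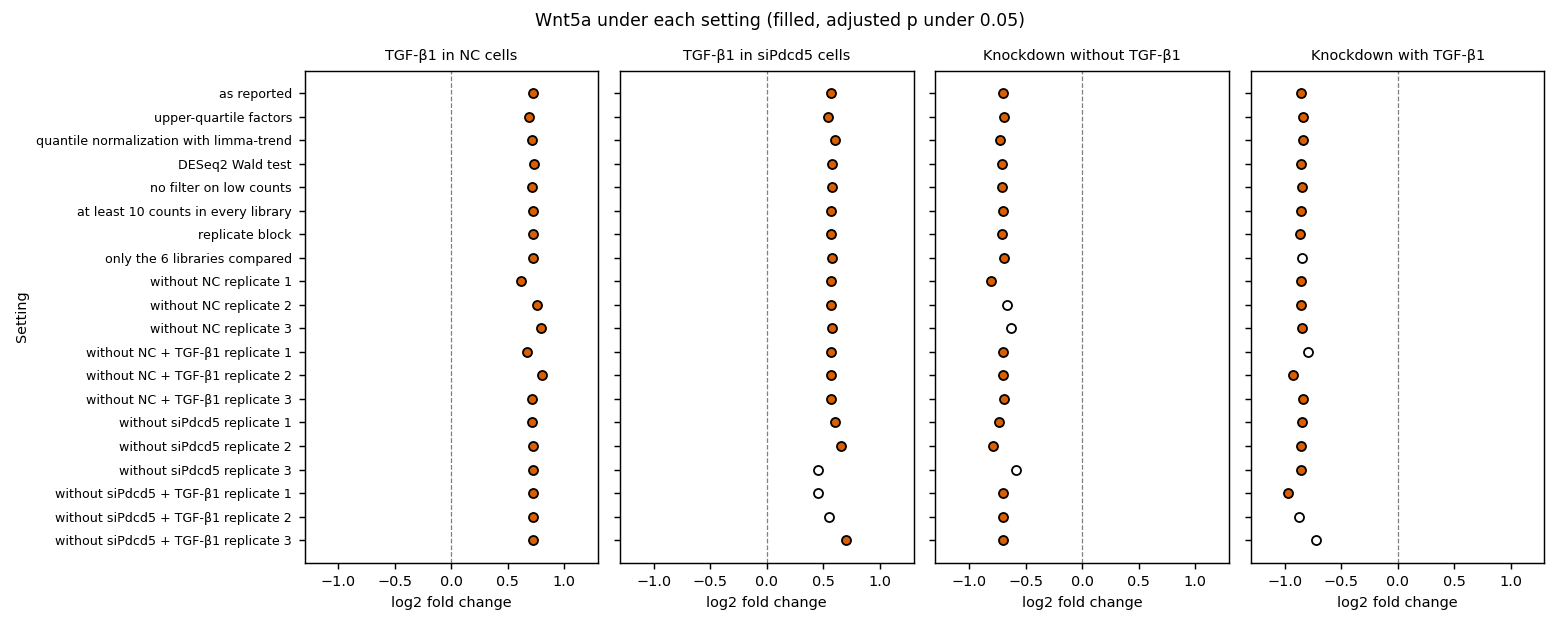
Log2 fold change of Wnt5a (horizontal axis) in the 4 comparisons under the reported setting and each alternative (vertical axis), with filled points where the adjusted p was under 0.05. All points of the first panel are filled, between 0.62 and 0.80, and 3, 3 and 4 points are open in the other panels.

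Marker genes of other cell types also moved in the same libraries, fibroblast genes in both directions. The summed level of 6 fibroblast markers (Col1a1, Col1a2, Col3a1, Pdgfra, Pdgfrb and Dcn) was 3760 to 4000 CPM in NC, 7450 to 8060 CPM in NC + TGF-β1, 2560 to 3140 CPM in siPdcd5 and 5610 to 5970 CPM in siPdcd5 + TGF-β1. Most of it was Col1a1, at 1700 to 6540 CPM, and Col3a1, at 684 to 1600 CPM over the 12 libraries. None of the 6 was at 0 in any library, and Pdgfra ranged from 3.39 to 5.93 CPM. With TGF-β1 in NC cells Col1a1 rose (log2 fold change 1.17, adjusted p = 1.19e-06, edgeR). Col1a2 (2.78, adjusted p = 6.15e-07), Pdgfrb (0.98, adjusted p = 0.00702) and Col3a1 (0.52, adjusted p = 0.00105, all edgeR) rose as well. Dcn fell (−2.08, adjusted p = 6.47e-09, edgeR) and Pdgfra was not called (−0.35, adjusted p = 0.241, edgeR). With knockdown alone Col1a1 (−0.47, adjusted p = 0.0148) and Col3a1 (−0.52, adjusted p = 0.00558) fell while Col1a2 (1.74, adjusted p = 0.000633) and Dcn (0.59, adjusted p = 0.00234) rose, and with TGF-β1 as well Col1a1 fell (−0.43, adjusted p = 0.0455) and Dcn rose (0.88, adjusted p = 0.000544, all edgeR). The summed level of 3 basal cell markers was 10.2 to 12 CPM in NC, 169 to 210 CPM in NC + TGF-β1, 1.92 to 4.51 CPM in siPdcd5 and 75.2 to 88.0 CPM in siPdcd5 + TGF-β1. Nearly all of it was Krt14, since Krt5 and Trp63 had at most 3 counts in any library. The sum of 4 epithelial markers was 674 to 697 CPM in NC, 1240 to 1680 CPM in NC + TGF-β1, 547 to 698 CPM in siPdcd5 and 1580 to 1650 CPM in siPdcd5 + TGF-β1. Nearly all of it was Krt18 and Krt8. Cdh1 stood at 1.91 to 4.03 CPM over the 12 libraries, and Epcam was at or near 0. The part of these genes in the Wnt5a result was not tested. In bulk RNA, fewer cells of a type and less RNA per cell cannot be told apart.

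Genes whose levels followed that of Wnt5a most closely were sought among the 9127 genes whose log2 CPM averaged 3 or more. The measure was the root mean square difference of mean-centred log2 CPM over the 12 libraries, for which the spread of Wnt5a itself was 0.536. The nearest were Nexn (0.180), which encodes an actin-binding protein, Pvrl3 (0.193), a nectin of cell junctions, and Cc2d2a (0.205), a protein of the ciliary transition zone. Nexn stood at 57.2, 60.0 and 60.1 CPM in NC, 76.6, 81.3 and 87.8 CPM in NC + TGF-β1, 33.9, 34.2 and 32.3 CPM in siPdcd5, and 52.1, 46.7 and 48.6 CPM in siPdcd5 + TGF-β1. Because these genes were picked for this likeness, their levels are a description.

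The Frizzled receptors were represented by an abundant and a scarce member. Fzd2 (chr11:102604396-102608058, plus strand) had 173, 172 and 175 CPM in NC and 189, 278 and 192 CPM in NC + TGF-β1. All treated libraries were higher, but the call was missed (fold 1.27, 95% confidence interval 1.03 to 1.56, adjusted p = 0.126, edgeR). The siPdcd5 libraries had 183, 159 and 143 CPM and the siPdcd5 + TGF-β1 libraries 172, 145 and 179 CPM, with overlapping ranges and a fold of 1.03 (0.832 to 1.26). With TGF-β1, all siPdcd5 libraries were below all NC libraries for Fzd2 (fold 0.753, 95% confidence interval 0.611 to 0.928, adjusted p = 0.194, edgeR). Much of both differences came from NC + TGF-β1 replicate 2, at 278 CPM, without which the log2 fold changes went from 0.34 to 0.14 and from −0.41 to −0.205.

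Fzd1 (chr5:4753839-4758035, minus strand) ranged from 5.09 to 11.7 CPM, and its groups overlapped in every comparison. Its log2 fold changes lay between −0.21 and −0.08, with standard errors of 0.28. The 95% confidence intervals reached from −0.812 to 0.516 over the 4 comparisons, so the counts leave room for changes within them. The co-receptor Lrp6 (chr6:134446476-134566965, minus strand) had 77.9, 80.3 and 77.5 CPM in NC and 60.8, 64.5 and 74.2 CPM in NC + TGF-β1. Its siPdcd5 libraries had 65.6, 78.7 and 68.4 CPM and its siPdcd5 + TGF-β1 libraries 62.3, 58.2 and 63.6 CPM. In both backgrounds all TGF-β1 libraries were lower than all untreated ones, without a call: the folds were 0.846 (95% confidence interval 0.730 to 0.981, adjusted p = 0.129, edgeR) in NC cells and 0.865 (0.747 to 1.00, adjusted p = 0.180, edgeR) in siPdcd5 cells.

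Sfrp1, which binds Wnt proteins outside the cell (chr8:23411502-23449632, plus strand), was near the limit of detection. Its counts were 26, 9 and 11 in NC, 6, 2 and 4 in NC + TGF-β1, 10, 4 and 27 in siPdcd5, and 3, 6 and 16 in siPdcd5 + TGF-β1. All NC + TGF-β1 libraries were below all NC libraries, with a log2 fold change of −1.90 whose 95% confidence interval ran from −3.62 to −0.186 (adjusted p = 0.137, edgeR). The other 3 pairs of groups overlapped.

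Ctnnb1 (chr9:120929216-120960507, plus strand), the most abundant of the 10 genes, encodes β-catenin. The libraries had 514, 463 and 481 CPM in NC, 518, 570 and 422 CPM in NC + TGF-β1, 545, 464 and 500 CPM in siPdcd5, and 577, 544 and 546 CPM in siPdcd5 + TGF-β1. The groups overlapped in every comparison. The folds ran from 1.04 to 1.10, and their 95% confidence intervals together spanned 0.884 to 1.29, so the counts leave room for a change of that size in RNA. Ctnnb1 overlaps Ulk4 and 4930593C16Rik on the opposite strand and Mir7090 on its own. Of the low genes described below, Axin2 overlaps Gm11670, Lef1 overlaps Gm43352 and Gm42449, and Tcf7 overlaps Gm26551 and A630014C17Rik. Tcf7l2 overlaps Ppnr. As for Wnt5a, reads of such pairs cannot be told apart here.

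Tcf7l2 (chr19:55741820-55933654, plus strand) was the most abundant Tcf and Lef family member. It had 130, 125 and 124 CPM in NC, 116, 106 and 161 CPM in NC + TGF-β1, 84.7, 110 and 105 CPM in siPdcd5, and 107, 113 and 110 CPM in siPdcd5 + TGF-β1. Without TGF-β1 every siPdcd5 library was below every NC library (fold 0.790, 95% confidence interval 0.644 to 0.968), but the adjusted p was 0.237 (edgeR), and without siPdcd5 replicate 1 the log2 fold change went from −0.34 to −0.24. With TGF-β1 the groups overlapped for Tcf7l2 and the fold was 0.861 (0.702 to 1.06). Tcf7l1, a family member from the wider list described below, had a median of 34.6 CPM (370 to 566 counts per library). All its NC + TGF-β1 libraries were above all its NC libraries, without a call (log2 fold change 0.38, adjusted p = 0.0666, edgeR). In the other comparisons the groups of Tcf7l1 overlapped. Tcf7 (chr11:52252371-52283014, minus strand) had 6, 11 and 6 counts in NC, 17, 6 and 14 in NC + TGF-β1, 11, 2 and 9 in siPdcd5, and 11, 8 and 9 in siPdcd5 + TGF-β1. These groups overlapped, and the 95% confidence intervals of its log2 fold changes reached from −1.70 to 1.91 over the 4 comparisons.

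Axin2 and Lef1 are transcribed in response to β-catenin in many tissues, and both were at the bottom of the range. Axin2 (chr11:108920349-108950783, plus strand) had 5, 14 and 13 counts in NC, 9, 13 and 10 in NC + TGF-β1, 16, 19 and 11 in siPdcd5, and 12, 12 and 18 in siPdcd5 + TGF-β1. Its group means were 0.806, 0.806, 0.979 and 0.980 CPM, the groups overlapped, and the folds were 1.00 (95% confidence interval 0.527 to 1.90) and 1.01 (0.558 to 1.81) with TGF-β1. At this depth a doubling could not have been told from no change in the knockdown comparisons, where the intervals were 0.655 to 2.23 and 0.654 to 2.25. Lef1 (chr3:131110471-131224356, plus strand) had 1, 3 and 2 counts in NC, 1, 0 and 1 in NC + TGF-β1, 1, 2 and 3 in siPdcd5, and 0, 0 and 2 in siPdcd5 + TGF-β1. No library exceeded 3 counts, and no fold is given.

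Promoter windows, from 250 bases before to 50 bases after an annotated start in RefSeq on GRCm38.p6, were at hand for 6 of the 10 genes, in 12 windows. The core of the Tcf and Lef binding motif, CTTTGA, was searched on both strands (TCAAAG on the other), since it is the sequence through which β-catenin reaches its targets. It occurred in 2 of the 12 windows (16.7%), against 16.0% of all 32851 windows. For each of the 2 low targets, the window with the most matches is shown. Axin2 has 1 window (chr11:108920099-108920398, plus strand), without a match. Of the 4 windows of Lef1, the one at chr3:131156044-131156343 (plus strand) has 2 matches, in capitals, at bases 71 and 131. It was thus picked by its matches, and it lies inside the gene, which starts at 131110471. The Lef1 windows near that start (chr3:131110047-131110346 and chr3:131110073-131110372) have no match, like that of Axin2, nor has the one at chr3:131112541-131112840. A match is a description of the letters and not a measured binding site.
Axin2: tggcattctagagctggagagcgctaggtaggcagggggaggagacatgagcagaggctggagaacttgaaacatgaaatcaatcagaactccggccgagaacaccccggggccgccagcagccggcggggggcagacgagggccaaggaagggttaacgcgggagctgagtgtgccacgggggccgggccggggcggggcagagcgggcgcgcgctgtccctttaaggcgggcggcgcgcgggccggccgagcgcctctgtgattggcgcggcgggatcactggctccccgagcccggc
Lef1: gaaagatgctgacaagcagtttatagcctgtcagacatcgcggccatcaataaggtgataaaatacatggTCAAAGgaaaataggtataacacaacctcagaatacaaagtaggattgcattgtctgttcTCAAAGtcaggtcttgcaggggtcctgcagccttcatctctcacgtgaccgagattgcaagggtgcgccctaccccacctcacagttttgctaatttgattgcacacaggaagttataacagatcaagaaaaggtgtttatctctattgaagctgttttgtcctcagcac

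Counting groups without overlap, TGF-β1 separated 4 of the 9 genes tested in NC cells (Wnt5a, Fzd2, Lrp6 and Sfrp1), where 29.6% of all genes were separated. It separated 2 in siPdcd5 cells (Wnt5a and Lrp6), against 36.1%. Knockdown separated 2 without TGF-β1 (Wnt5a and Tcf7l2), against 23.1%, and 2 with it (Wnt5a and Fzd2), against 18.9%. The median log2 fold changes of the 9 genes were 0.013, 0.037, −0.15 and −0.21 in the 4 comparisons, beside 0.005, −0.026, 0.022 and −0.017 over all genes tested. For the difference of the TGF-β1 responses between siPdcd5 and NC cells, edgeR called 0 of the 9 genes and 0% of all genes. At an unadjusted p under 0.05 it found 0 of the 9 and 638 of all genes, and DESeq2 called 0 of the 9 and 15 of all genes.

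**Figure D3:**
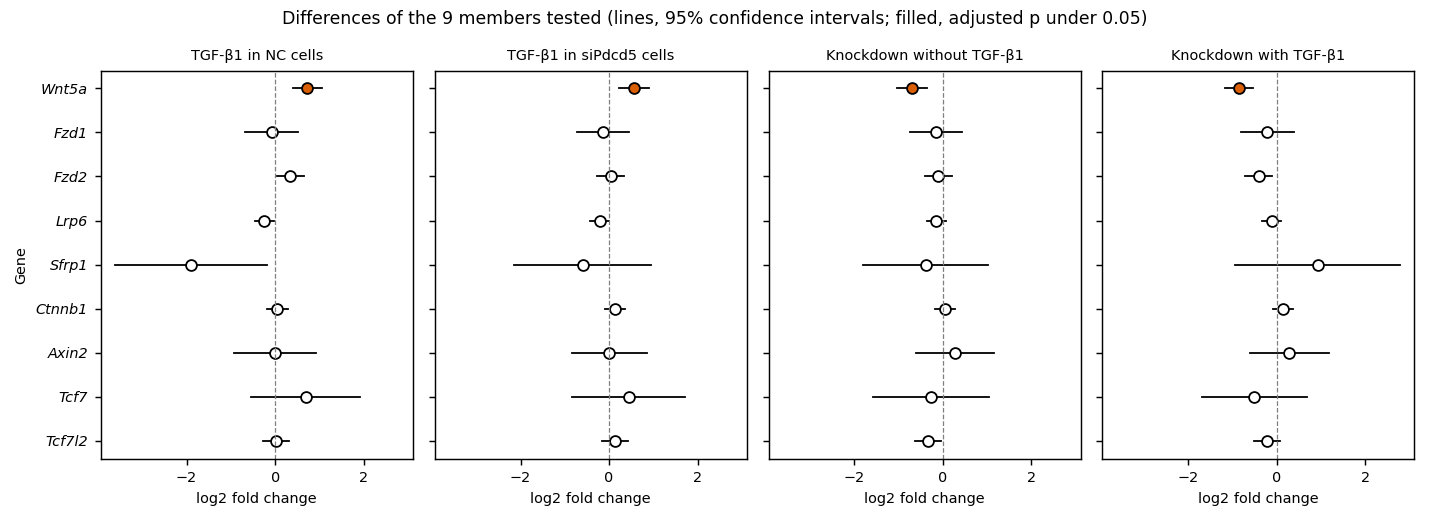
Log2 fold change (horizontal axis) with its 95% confidence interval for the 9 genes tested (vertical axis) in the 4 comparisons, with filled points where the adjusted p was under 0.05. Wnt5a holds the 4 filled points, at 0.73, 0.57, −0.70 and −0.85, and the intervals of Sfrp1, Tcf7 and Axin2 are the widest.

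A wider list of 104 genes of the pathway, which includes the 10, gives the setting of these values. It was chosen with earlier results of these data known. Its shares of called genes, set beside those of all genes below, are therefore a description and no test of the pathway. All 104 were in the files, 60 were tested, and 8 had no count in any library. Of 19 Wnt ligands, 5 were tested: Wnt4 (median 37.6 CPM), Wnt9a (27.5 CPM), Wnt5a (26.0 CPM), Wnt7a (0.535 CPM) and Wnt7b (0.495 CPM). Of 16 receptors 11 were tested, among which Ryk, a receptor for Wnt5a, had a median of 129 CPM, whereas Ror1 and Ror2 had at most 9 and 3 counts per library and were not tested. Of 16 targets, 7 were tested, and among the other 9 no library held more than 5 counts. Dkk1 and Sp5 had 0 counts in all 12 libraries, and Lgr5, Notum, Nkd1, Rnf43 and Apcdd1 had at most 3, 5, 1, 4 and 1. Low levels of Axin2 and Lef1 thus stood beside low levels of these targets. Another feedback target, Znrf3, which like Rnf43 removes Frizzled receptors from the cell surface, had a median of 10 CPM (83 to 248 counts per library), and Ccnd1 (780 CPM) and Wisp1 (949 CPM), which respond to many signals, were abundant. Of 20 cytoplasmic regulators 18 were tested, with Gsk3b at a median of 482 CPM, Apc at 58.9 CPM and Axin1 at 47.0 CPM, against 0.949 CPM for Axin2.

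**Figure D4:**
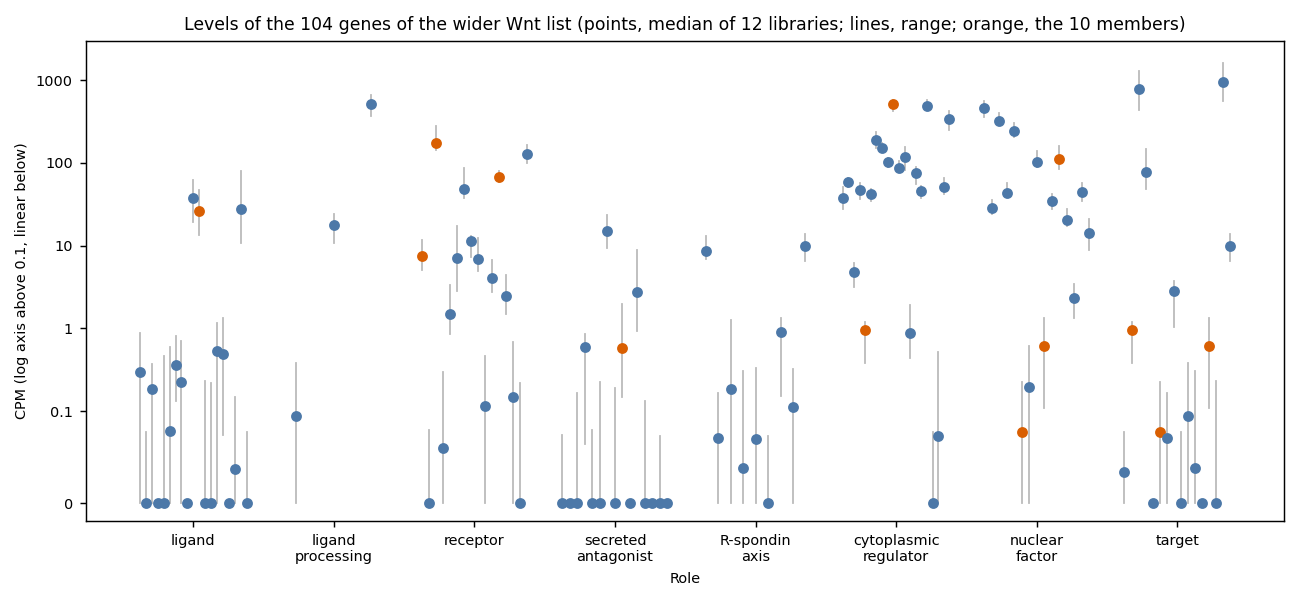
Level of the 104 genes by role (horizontal axis), as the median of 12 libraries (points) with the range (lines), on a vertical axis in CPM that is logarithmic above 0.1 and linear below. A gene with more than one role is drawn in each, and the 10 genes described above are orange. Cytoplasmic regulators sit mostly above 10 CPM, while 9 of the 16 targets lie under the filter, with at most 0.380 CPM.

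With TGF-β1 in NC cells, 13 of the 60 were called (21.7%, against 15.3% of all genes), 6 higher and 7 lower. The ligands Wnt9a (log2 fold change 1.43, standard error 0.22) and Wnt5a rose and Wnt4 fell (−1.16, standard error 0.11). Wnt9a had 21.5, 22.8 and 20.0 CPM in NC and 48.3, 79.2 and 45.5 CPM in NC + TGF-β1, and Wnt4 had 62.0, 58.8 and 56.3 against 24.6, 28.5 and 26.0 CPM, with no overlap for either. Porcn, the enzyme that attaches the lipid a Wnt needs for secretion, rose by 0.84 (standard error 0.11) on the log2 scale. The receptors Fzd5 (−1.66), Fzd4 (−1.05) and Fzd8 (−0.70) were called lower, whereas none was called higher. The antagonist Sfrp4 fell (−2.19, standard error 0.22) and Kremen1, a receptor for Dkk proteins, rose (0.55, standard error 0.16). Aes, a corepressor of the Groucho family, fell (−0.38). Among targets, Cd44 (1.13) and Wisp1 (1.06) rose and Ccnd1, which encodes cyclin D1, fell (−1.26), so the targets tested did not share a direction. Without NC + TGF-β1 replicate 2, Wnt9a went from 1.43 to 1.13 and Cd44 from 1.13 to 0.88, both still called. Without 1 library, the calls of Kremen1 (without NC replicate 2 or 3, or NC + TGF-β1 replicate 1, adjusted p up to 0.163), Fzd8 (without NC replicate 3 or NC + TGF-β1 replicate 1 or 2, up to 0.126) and Fzd4 (without NC replicate 1 or 3, or any 1 of the NC + TGF-β1 libraries, up to 0.132) were lost.

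With TGF-β1 in siPdcd5 cells, 13 of the 60 were again called (21.7%, against 16.1%), 7 higher and 6 lower. Wnt9a (1.52), Wnt5a, Porcn (0.64), Kremen1 (0.76), Cd44 (0.85) and Wisp1 (1.07) rose, as did Wnt7b (1.77, standard error 0.51), which stood at 0.295, 0.386 and 0.258 CPM in siPdcd5 and 0.940, 1.00 and 1.34 CPM in siPdcd5 + TGF-β1. Wnt4 (−1.20), Fzd5 (−1.44), Sfrp4 (−1.76), Ccnd1 (−1.19), Aes (−0.29) and the corepressor Tle3 (−0.58, standard error 0.10) fell. Without siPdcd5 replicate 1, Wnt9a went from 1.52 to 1.79 and Cd44 from 0.85 to 0.98. The call of Wnt7b was lost without any 1 of the 6 libraries compared (adjusted p up to 0.114), and with no filter on low counts. Wnt7b had 4 to 7 counts per library in siPdcd5 and 13 to 20 in siPdcd5 + TGF-β1. The NC libraries had 1 to 8 and the NC + TGF-β1 libraries 5 to 7. Wnt7b thus passed the filter only through siPdcd5 + TGF-β1, the group where it was high. Its call, which is among the 13, is therefore a description. The call of Aes was lost without any 1 of the NC or siPdcd5 + TGF-β1 libraries, or siPdcd5 replicate 2 or 3 (up to 0.135). No difference between the responses in NC and siPdcd5 cells was called by edgeR or by DESeq2 for any of the 60. An unadjusted p under 0.05 in edgeR was found for 3 of them (5%: Lgr4, Bcl9l and Tle3, named after their values were seen), close to the 5.13% of all genes.

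The genes of the list called with Pdcd5 knockdown were all lower, and calls over all genes also leaned that way, with 315 lower and 112 higher without TGF-β1 and 151 lower and 41 higher with it. Without TGF-β1, 5 of the 60 were called lower (8.33%, against 2.54% of all genes) and 0 were called higher. They were Sfrp4 (−1.11, standard error 0.20), Wnt5a, Fzd5 (−0.69, standard error 0.17), the Groucho-family corepressor Tle4 (−0.59, standard error 0.15) and Wls (−0.45, standard error 0.09). Wls is the carrier that takes Wnt proteins to the cell surface. Wls had 554, 504 and 562 CPM in NC and 365, 437 and 381 CPM in siPdcd5, without overlap. With TGF-β1, 3 of the 60 were called lower (5%, against 1.22% of all genes) and 0 were called higher. They were Wnt5a, Tle4 (−0.65, standard error 0.15) and Wls (−0.42, standard error 0.09). As the list was chosen with earlier results known, the excess over all genes is a description. Wls then had 656, 624 and 635 CPM in NC + TGF-β1 and 515, 461 and 457 CPM in siPdcd5 + TGF-β1. The ligand and its carrier were therefore lower in both knockdown comparisons, while Porcn was not called in either (0.41, adjusted p = 0.0742, and 0.21, adjusted p = 0.425, edgeR). Sfrp4 and Fzd5 were not called with TGF-β1 (−0.67, adjusted p = 0.243, and −0.47, adjusted p = 0.298, edgeR).

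These counts depended on single libraries. Without TGF-β1 the 5 became 2 without NC replicate 1 or 2, 1 without NC replicate 3 or siPdcd5 replicate 3, and 3 without siPdcd5 replicate 2. With TGF-β1 the 3 became 0 without NC + TGF-β1 replicate 1 or siPdcd5 + TGF-β1 replicate 2, and 1 without NC replicate 1, 2 or 3, NC + TGF-β1 replicate 3, siPdcd5 replicate 3, or siPdcd5 + TGF-β1 replicate 1 or 3. The share of all genes called without each library was not counted, so these drops cannot be set against those of all genes. With siPdcd5 replicate 1 left out, Fzd5 (adjusted p = 0.0718) and Tle4 (adjusted p = 0.0813, both edgeR) lost their calls without TGF-β1. Tle4 then also lost its call with TGF-β1 (adjusted p = 0.0503, edgeR). Sfrp4 without TGF-β1 was called in all 19 alternatives, Wls in 16 of 19 without TGF-β1 and 8 of 19 with it, Tle4 in 10 and 4, and Fzd5 in 9 without TGF-β1. The fitted changes of these genes kept their sign in every alternative, with Wls between −0.54 and −0.41 without TGF-β1 and between −0.48 and −0.37 with it.

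**Figure D5:**
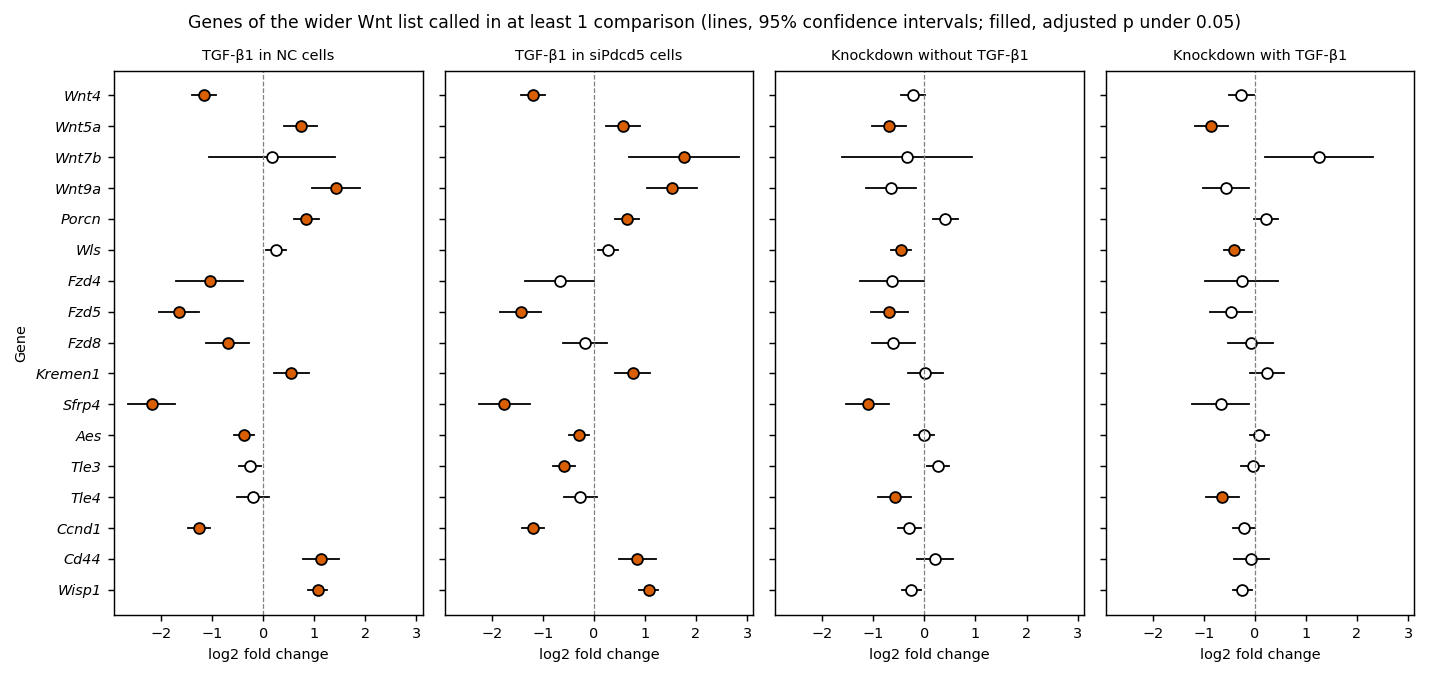
Log2 fold change (horizontal axis) with its 95% confidence interval in the 4 comparisons for the genes of the wider list called in at least 1 of them (vertical axis, ordered by role), with filled points where the adjusted p was under 0.05. Both TGF-β1 panels hold 13 filled points on either side of 0, and the knockdown panels hold 5 and 3, all below 0.

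Among the 18 cytoplasmic regulators tested, which include Ctnnb1 and Axin2, 0 were called by edgeR in any comparison, against 15.3%, 16.1%, 3.44% and 1.55% of all genes. At an unadjusted p under 0.05 there were 4 (22.2%), 4 (22.2%), 0 and 1 (5.56%) in the 4 comparisons, against 27.1%, 28.9%, 15.7% and 13.8% of all genes. DESeq2, counted after seeing the data, called 3 of the 18 with TGF-β1 in NC cells (Csnk1e, Gsk3b and Amer1), 1 in siPdcd5 cells (Csnk1e) and 0 with knockdown. The share of all genes that DESeq2 called in these comparisons was not counted. The edgeR shares above are no measure for it, so the DESeq2 numbers are a description. The median log2 fold changes of the 60 genes were 0.08 and 0.024 with TGF-β1 and −0.076 and −0.082 with knockdown, beside 0.005 and −0.026, and 0.022 and −0.017, over all genes tested.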

How the data were processed

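RNA of 12 C22 libraries was measured with the QuantSeq 3′ kit. The authors aligned reads with Bowtie2 (mm10 per the submitters' processing notes), used Bedtools to count reads per gene, both uniquely and multiply aligned, and deposited the whole-number counts. Their quantile normalization in edgeR is not in these counts. Annotation and strand use are not given in the sources used here. Groups came from the labels, and 44 repeated symbols were kept as separate rows. With R 4.3.3, edgeR 4.0.16 and limma 3.58.1, edgeR's default filter kept 12425 of 23282 genes, libraries were TMM-scaled, and one quasi-likelihood model with 4 groups was fitted (square root of the common dispersion 0.132), with Benjamini-Hochberg adjusted p under 0.05 as a call. Log2 CPM used a prior count of 2. DESeq2 1.42.0 was an alternative, as were other scalings, filters and sets of libraries. The members and lists were chosen with earlier results of these data known. Genes named by rule are Pdcd5, the 10 members and the 3 genes nearest to each called member. In the wider list the rule takes up to 3 rises and 3 falls called per role and comparison. Other genes of that list are named outside the rule, for their levels or after their values were seen. Marker genes of cell types come from a separate list. Gene positions come from GENCODE M21 (GRCm38). Total counts of 12809857 to 17714828 per library, without molecular identifiers, set the floor of 3 counts.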

Additional observations from a re-analysis of the deposited data

How the results depend on the processing

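The alternatives were quantile normalization (limma-trend), upper-quartile factors, DESeq2, no filter, at least 10 counts in every library, the replicate number as a block, only the 6 libraries compared, and each library left out. Of 827 log2 fold changes of the members under them, 765 kept their direction and their side of the threshold, 10 lost the call (all Wnt5a) and 52 changed sign, none of which was called. The scalings moved the median over all genes by at most 0.035. Precision was limited by counts under 30 per library for Axin2, Sfrp1, Tcf7 and Lef1. With at least 10 counts in every library, Axin2, Sfrp1 and Tcf7 gave no value. Counting the wider list under the alternatives was added after seeing the data.

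The cause of the sign changes was not tested. With TGF-β1 in NC cells, Ctnnb1 became −0.054 with quantile normalization. Axin2 became −0.0331 with upper-quartile factors, −0.0123 with no filter and −0.00317 with only the 6 libraries compared. Tcf7l2 became −0.0251 with upper-quartile factors, −0.0673 with quantile normalization, −0.00355 with no filter and −0.000956 with the replicate block. With TGF-β1 in siPdcd5 cells, Fzd2 became −0.0308 with quantile normalization and Axin2 −0.0231 with upper-quartile factors. For the difference between responses, Axin2 became −0.00833 with the replicate block and Tcf7 0.0129 with quantile normalization. With knockdown and TGF-β1 the members called became 0 and the wider list 0 with only the 6 libraries compared. With the replicate block the wider list called became 3 without TGF-β1 and 1 with it, and no other count crossed 1.5 times and no member's call changed. Same-numbered libraries had correlations of their deviations from group means between −0.324 and 0.166 over the 4 comparisons, and 2, 1, 1 and 0 of 3 matched their own number best, so the numbers were not read as pairs.

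With 1 library left out, the values ranged as follows. Fzd1 ran from −0.336 to 0.166 and from −0.345 to 0.0974 with TGF-β1 in NC and siPdcd5 cells, from −0.388 to 0.0945 and from −0.417 to 0.0463 with knockdown without and with TGF-β1, and from −0.306 to 0.196 for the difference between responses. Ctnnb1 ran from −0.0482 to 0.171 with TGF-β1 in NC cells, from −0.0142 to 0.106 with knockdown alone and from −0.0258 to 0.192 for the difference. Axin2 ran from −0.333 to 0.226 and from −0.176 to 0.155 with TGF-β1 in NC and siPdcd5 cells, from −0.0607 to 0.499 with knockdown alone and from −0.219 to 0.340 for the difference. Tcf7l2 ran from −0.183 to 0.131 with TGF-β1 in NC cells, and Fzd2 from −0.0439 to 0.141 in siPdcd5 cells. Sfrp1 ran from −1.42 to 0.350 with TGF-β1 in siPdcd5 cells and from −1.33 to 0.228 with knockdown alone. Tcf7 ran from −0.0776 to 0.967 and from −0.791 to 0.252 in the same comparisons, and from −0.764 to 0.289 for the difference. Lrp6 ran from −0.0279 to 0.115 for the difference. The members called ran from 0 to 1 with TGF-β1 in siPdcd5 cells and with knockdown without and with TGF-β1, and the wider list called from 1 to 7 and from 0 to 3 with knockdown without and with TGF-β1. Shares of all genes called under the alternatives were not counted.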
